A study of Rattus norvegicus with 8 samples.

Results

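The interferon response genes are 9 rat genes, Isg15, Mx1, Mx2, Irf1, Irf7, Stat2, Ifit2, Ifit3 and Usp18, out of 13903 genes that could be named on the array. They were found by the RefSeq accession of each array feature that is not a control, and all 9 were on the array with 1 probe each, printed in 1 spot. RNA came from male F344 rats and was measured once per sample on the Arraystar rat lncRNA array, a 1-colour Agilent array that also holds mRNA probes. Lung was sampled at week 95 as 3 tumors and as 3 pieces of normal tissue matched to them, all from the group given NNK, a nitrosamine found in tobacco smoke that causes lung cancer. The blood samples, also from week 95, were clots of whole blood, 1 from the control group and 1 from the NNK treatment group. The normal lung had thus also been exposed to NNK, and lung of untreated rats was not analysed here. For the NNK blood sample, the title, source and tissue named a blood clot while its description repeated that of lung tumor 3, and it was used as blood.

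Interferons are secreted proteins that infected or activated cells release to warn their neighbours. Interferon-alpha and interferon-beta signal through the kinases Jak1 and Tyk2 to a complex that holds Stat2 and Irf9 and binds the interferon-stimulated response element (ISRE) in the promoters of its target genes. Interferon-gamma acts on its targets through the gamma-activated site (GAS), and Irf1 is a well known target of that route. Irf7 is the factor that amplifies interferon-alpha production. Among the targets, Isg15 is a small ubiquitin-like protein that is attached to other proteins, and Usp18 removes it and also dampens signaling at the interferon receptor. The Ifit proteins bind viral RNA, and the Mx proteins are dynamin-like GTPases that block viruses. In lung, this program is known as a first line of defense against respiratory viruses.

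The promoters that hold 1 of these binding motifs are shown because they carry the letters through which the pathway is known to reach its targets. RefSeq promoters of the build GRCr8, which run from 250 bases before to 50 bases after the start of a gene, were at hand for Mx1, Irf1, Irf7, Stat2 and Ifit3. The ISRE core was searched as GAAANNGAAA and the GAS as TTCNNNGAA, each on both strands. The 250 bases before the start are printed 5′ to 3′ on the strand of the gene, with the motif in capitals:
Ifit3, chr1:241527076-241527325 (plus strand): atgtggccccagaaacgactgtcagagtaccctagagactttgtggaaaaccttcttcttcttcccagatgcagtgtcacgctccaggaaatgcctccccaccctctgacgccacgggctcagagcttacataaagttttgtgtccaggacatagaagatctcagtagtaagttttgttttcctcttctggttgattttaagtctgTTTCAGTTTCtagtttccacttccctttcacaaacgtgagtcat
Irf7, chr1:205800024-205800273 (minus strand): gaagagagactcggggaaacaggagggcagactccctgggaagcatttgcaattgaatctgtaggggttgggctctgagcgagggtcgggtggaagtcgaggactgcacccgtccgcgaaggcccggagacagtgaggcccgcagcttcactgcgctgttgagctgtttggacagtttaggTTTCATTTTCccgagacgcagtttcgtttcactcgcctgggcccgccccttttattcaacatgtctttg
Irf1, chr10:38417685-38417934 (plus strand): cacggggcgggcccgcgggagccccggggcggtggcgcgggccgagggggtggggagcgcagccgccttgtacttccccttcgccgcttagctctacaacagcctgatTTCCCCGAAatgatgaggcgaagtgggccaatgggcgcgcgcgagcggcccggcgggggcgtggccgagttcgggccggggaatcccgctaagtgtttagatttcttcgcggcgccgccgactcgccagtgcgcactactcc

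The capitals mark an ISRE core on the opposite strand of Ifit3 and of Irf7, beginning 44 and 69 bases before the start, and a GAS of Irf1 beginning 142 bases before it. In Mx1 and Stat2 neither set of letters was found in this window. Of all 27457 promoters, 3.766% held the ISRE core and 8.68% the GAS, and in 13 promoters the motifs overlapped. Of 75 other genes of the pathway lists with a promoter entry, 36 (48.0%) held the ISRE core and 13 (17.33%) the GAS. A match is a description of the letters and not a measured binding site. Promoter entries for Isg15, Mx2, Ifit2 and Usp18 were not used here.

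Processed signals had a median of 24.98 to 35.6 in lung, 11.8 in control blood and 32.0 in NNK blood, and a 75th percentile of 1191 to 1329 in lung against 95.4 and 205.8 in control and NNK blood. The labelled tissues held their defining markers. The processed signal of Sftpa1, a surfactant protein of type 2 alveolar cells, was 316969 to 367647 on the lung arrays against 28.1 and 73.8 in control and NNK blood, whereas Alas2, an enzyme of heme synthesis in red cell precursors, read 578249 and 659642 in blood against 2219 to 21916 in lung. Feature Extraction marked 4.92% to 8.62% of the spots well above background as outliers on the normal arrays and 15.9% to 25.3% on the tumor arrays. Arrays that share a scan time in the headers were taken as 1 slide, so that slide 1 held the 3 normal arrays and tumor 1, slide 2 held tumors 2 and 3, and slide 3 held the blood samples. Arrays of the 3 normal lungs differed from each other by 0.467 to 0.787 times the mean squared difference that the spread between spots of a probe gives, and tumors 2 and 3 by 0.467 times, so each of these sets differed by less than the noise of the spots. Tumor 1 differed from tumors 2 and 3 by 3.03 and 3.36 times that noise, and tumor from normal arrays by 8.35 to 12.8 times. Values are therefore given per array, with the standard error (SE) of limma over 3 against 3 arrays, and again with the near-identical arrays counted as 1 sample, which leaves 1 normal and 2 tumor samples. Its error is estimated from only 2 tumor samples, with limma's sharing over probes, and is taken to hold for the single normal sample too, so its p-values carry little weight. The labels do not say that these arrays came from separate animals, and the p-values over 3 against 3 arrays may measure technical spread.

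In lung tumor, Isg15, Ifit2 and Ifit3 fell to between 18.3% and 26.9% of their level in normal lung, Mx1 was called higher from a level at or near background, and Irf1, Irf7, Stat2, Mx2 and Usp18 were not called. A gene was called where limma gave a Benjamini-Hochberg adjusted p of at most 0.05 over all probes tested together with a fold change of at least 2. Over all 12471 probes tested, 29.0% were called, 13.5% higher and 15.5% lower in tumor. With spots that carry an outlier mark kept, which was needed for Ifit2 and Ifit3, 14.4% of 15803 probes were lower. Of the 9 members, 3 fell and 1 (Mx1) rose, and of the 7 that could be tested without marked spots 1 fell and 1 rose. Their median log2 fold change was -0.42, beside 0.06 over all probes tested. The tumor and normal arrays did not overlap for 7 members, as for 72.9% of all probes tested. Nothing particular to the 9 genes is read from these counts. In bulk tissue, fewer cells of a type and less RNA per cell cannot be told apart.

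**Figure D1:**
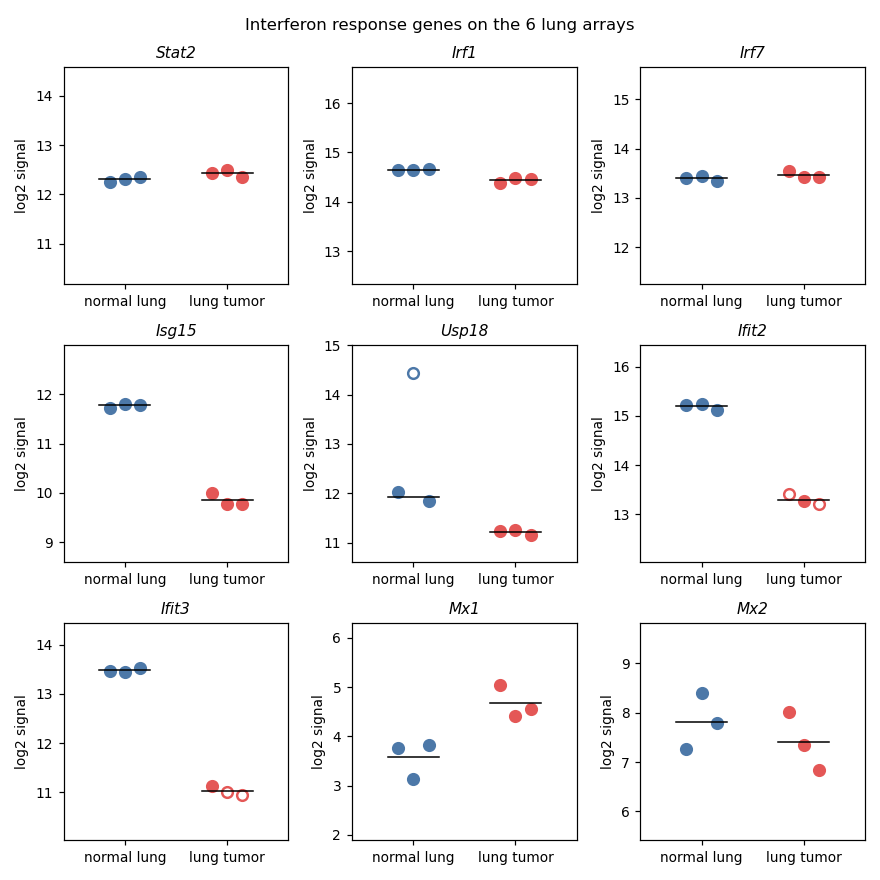
Each panel shows 1 member, with its quantile-normalized log2 signal on the vertical axis (each axis spans its own range of levels) and the 3 normal lung (blue) and 3 lung tumor (red) arrays on the horizontal axis. Open circles are spots that Feature Extraction marked as outliers, and the lines are means of the arrays used in the fit, which leave out the open circle of Usp18 and keep those of Ifit2 and Ifit3. The tumor arrays of Isg15, Ifit2 and Ifit3 lie below all normal arrays, with means lower by 1.92, 1.90 and 2.45.

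Stat2, the partner of Irf9 in the complex at the ISRE, had log2 signals of 12.26, 12.31 and 12.35 in normal lungs 1 to 3 and 12.43, 12.49 and 12.35 in tumors 1 to 3. The lowest tumor and the highest normal value were the same to 2 decimals, and the log2 fold change of 0.12 (SE 0.062) did not pass the test (limma, adjusted p = 0.141). Irf7, which drives interferon-alpha production, stood at 13.41, 13.45 and 13.34 in normal lung against 13.55, 13.43 and 13.42 in tumor. These ranges overlapped, with a log2 fold change of 0.06 (SE 0.065, limma, adjusted p = 0.421). Irf1, the factor best known from the interferon-gamma response, was at 14.64, 14.65 and 14.66 in normal lung and at 14.39, 14.48 and 14.46 in tumor. Every tumor value of Irf1 was below every normal value, but the log2 difference was only -0.20 (SE 0.051, limma, adjusted p = 0.017), far under 2-fold. By the adjusted p alone, 65.1% of all probes tested passed. With the near-identical arrays counted once, the difference of Irf1 was -0.22 and its SE 0.20 (limma, adjusted p = 0.477).

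Isg15 had log2 signals of 11.73, 11.81 and 11.78 in normal lungs 1 to 3 and 9.99, 9.78 and 9.78 in tumors 1 to 3. All 3 tumor arrays were far below the normal ones, and the spread within each group was small beside the gap. The log2 fold change was -1.92 (SE 0.079, limma, adjusted p = 1.9e-05), a 3.80-fold lower signal. In processed signal before normalization this was 3388 to 3951 in normal lung against 909.9 to 1029.8 in tumor. No array carried an outlier mark at this probe. Counting near-identical arrays once gave -1.89 (SE 0.22, limma, adjusted p = 0.038). With the slide as a block it was -1.78. That value is tumor 1 against the 3 normal arrays of slide 1, since slide 2 held no normal lung, and its error (SE 0.056, limma, adjusted p = 9.1e-05) rests on arrays that differ by less than the noise of the spots.

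Usp18, the protease that removes Isg15 from proteins, was at 12.02 and 11.85 in normal lungs 1 and 3 and at 11.24, 11.26 and 11.15 in tumors 1 to 3. The spot of normal lung 2 read 14.45, was marked as an outlier and was left out of the fit. Over the remaining arrays tumor was lower by a log2 fold change of -0.71 (SE 0.086, limma, adjusted p = 0.0022), under 2-fold and thus not called. With the marked spot kept, the log2 fold change was -1.55 with an SE of 0.72 (limma, adjusted p = 0.108), so that this 1 spot moved the difference from -0.71 to -1.55 and ended its significance. Counting near-identical arrays once left -0.71 (limma, adjusted p = 0.114). Ube2l6, the enzyme that conjugates Isg15 to proteins and the other gene of the Isg15 pathway on the array, differed by -0.25 (SE 0.084, limma, adjusted p = 0.046, marked spots kept) in lung and was not called.

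Ifit3 changed the most of the 9 members in lung tumor. Its log2 signals were 13.46, 13.44 and 13.52 in normal lungs 1 to 3 and 11.12, 11.01 and 10.94 in tumors 1 to 3. Tumors 2 and 3 were marked as outliers, and the unmarked tumor 1 lay just above both. With the marked spots kept, the log2 fold change was -2.45 (SE 0.067, limma, adjusted p = 5.3e-06), which is 5.47-fold lower. Ifit2, its neighbour in the annotation with 0 protein-coding genes between them, had log2 signals of 15.22, 15.25 and 15.11 in normal lung and 13.41, 13.27 and 13.21 in tumor. Here tumors 1 and 3 were marked, and the unmarked tumor 2 lay between them. The log2 fold change of Ifit2 was -1.90 (SE 0.077, limma, adjusted p = 1.5e-05), a 3.72-fold lower signal. For both genes normal and tumor arrays were far apart. Counted once per set of near-identical arrays, Ifit3 was at -2.43 (SE 0.21, limma, adjusted p = 0.028) and Ifit2 at -1.87 (SE 0.21, limma, adjusted p = 0.032). With the slide as a block, again tumor 1 alone against normal lung, the values were -2.36 for Ifit3 and -1.79 for Ifit2.

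Mx1, a GTPase that blocks RNA viruses, had low log2 signals of 3.77, 3.14 and 3.82 in normal lungs 1 to 3 and 5.05, 4.41 and 4.55 in tumors 1 to 3. It was well above background on 1 of 3 normal and on 3 of 3 tumor arrays and so passed the filter only through the tumor arrays. Its processed signals were 11.1 and 8.9 in normal lungs 1 and 2, below the lowest signal well above background there (12.0 and 16.9), and at least 24.6 in tumor. The fitted log2 fold change was 1.09 (SE 0.26, limma, adjusted p = 0.013), past both limits, but its size is uncertain because most normal values were not above background. Under the normexp background correction the fold change was only 0.21 (limma, adjusted p = 0.045), and without normal lung 2 or tumor 1 it was 0.88 or 0.90, below 2-fold. Counting near-identical arrays once gave 1.19 (SE 0.35, limma, adjusted p = 0.124). Mx2, the other Mx gene, with 1 protein-coding gene between them in the annotation, was at 7.26, 8.40 and 7.80 in normal lung and at 8.02, 7.35 and 6.83 in tumor. Its groups overlapped, and its log2 fold change of -0.42 (SE 0.41) did not pass the test (limma, adjusted p = 0.406). Mx2 had the largest SE of the 9 members, and its arrays spread over more than 1 log2 unit in both groups.

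**Figure D2:**
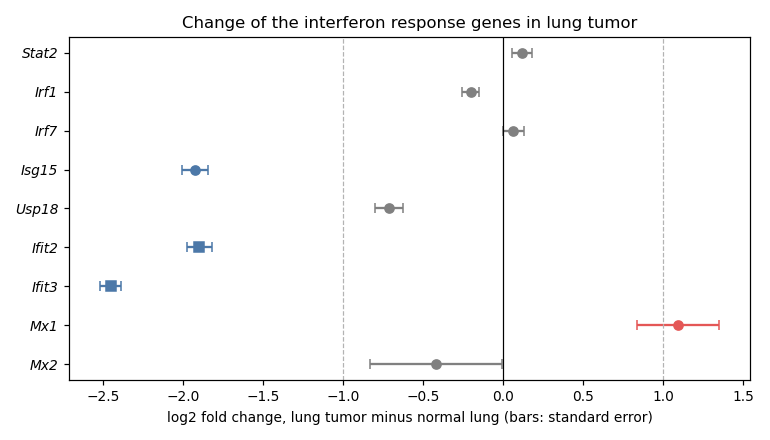
The log2 fold change of lung tumor over normal lung is plotted for each member with the SE of limma over 3 against 3 arrays as bars, and dashed lines mark a 2-fold change. Squares are members fitted with marked spots kept, blue marks members that fell, red the one that rose and grey those not called. Isg15, Ifit2 and Ifit3 lie beyond the lower 2-fold line, Mx1 at 1.09 lies just beyond the upper one but has normal values near background, and Irf1, Irf7 and Stat2 lie close to 0.

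Markers of leukocytes and of lung cells moved in the same arrays. Of 6 natural killer cell markers, Klrd1, Nkg7, Prf1, Gzmb and Klrb1a were tested and all 5 fell, while Ncr1, a defining marker, was not well above background on any lung array. Their summed normalized signal (linear scale) was 90491 to 97250 in normal lung and 16830 to 18980 in tumor. The 3 endothelial markers tested fell as well (204785 to 213965 against 36802 to 37062 in summed signal), as did 4 of 5 type 1 alveolar markers and 2 of 4 neutrophil markers. Of 4 markers on the array that were listed for plasmacytoid dendritic cells, which make much interferon-alpha, 3 were tested and 2 fell, Tcf4 and Bst2. Spib was at -0.93 (SE 0.11, marked spots kept) and was not called, and the listed marker Siglech was not on the array. Bst2 is also an antiviral effector. The marker Irf8 was well above background on 1 tumor and no normal array and did not pass the filter. Among T cell markers 1 of 7, Cd8a, fell (log2 fold change -1.42, SE 0.071). Cd3e and Lck were lower by less than 2-fold and not called (-0.75, SE 0.068, and -0.63, SE 0.12), while Cd2, Cd3d, Cd3g and Cd5 differed by -0.25 to -0.02. The T cell sum was 18669.8 to 19559.9 in normal lung and 10088 to 11548 in tumor, with Cd8a the brightest of these markers on each lung array. Of 5 red blood cell markers 4 fell, with a median log2 fold change of -2.61 over the 5, and their sum was 220207 to 228946 in normal lung against 131150 to 139658 in tumor. Of 4 platelet markers 3 fell, while Pf4 was at 0.98 and the sum was 4927 to 5266 against 7746 to 9075. None of 6 macrophage markers was called, and they differed in direction. Csf1r (log2 fold change -0.77, SE 0.062) and Adgre1 (-0.23, SE 0.051) were lower in tumor. Siglec1, Cd68, Mrc1 and Lyz2 were higher by 0.30 to 0.80. The macrophage sum, in which Lyz2 was the brightest, was 408964 to 441237 in normal lung against 485501 to 543838 in tumor. Of 5 type 2 alveolar markers 1, Sftpc, rose (log2 fold change 1.14, SE 0.10, marked spots kept). The type 2 sum was 897263 to 933843 in normal lung against 970088 to 994627 in tumor. Of 3 B cell markers tested 1, Cd79b, was called higher, but it was well above background on no normal array. Neither of 2 club and airway markers was called. The part of these cell types in the fall of Isg15, Ifit2 and Ifit3 was not tested.

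In the blood clots, 5 of the 9 members were at least 2-fold higher in the NNK sample, Irf1 most of all, and 1, Mx2, was at least 2-fold lower. With 1 array per group there was no test, and the differences compare 2 samples and not the treatments. Of 14452 probes compared, 42.2% differed at least 2-fold, 23.1% higher and 19.1% lower in NNK blood. The median log2 difference was 1.09 over the members and -0.11 over all probes compared. All 9 members were well above background on both blood arrays and none carried an outlier mark there.

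The transcription factors differed from each other in blood. Irf1 had a log2 signal of 9.51 in control and 12.77 in NNK blood, a 9.58-fold higher signal. Stat2 was at 8.17 and 10.08, which is 3.76-fold higher. Irf7 was at 16.77 in control and 15.99 in NNK blood, a log2 difference of -0.78. Thus of these 3 factors Irf1 and Stat2 were past 2-fold higher and Irf7 was lower without reaching 2-fold.

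Isg15 was at 10.69 in control and 12.14 in NNK blood, 2.74-fold higher, and Usp18 at 7.45 and 8.54, 2.13-fold higher. Ifit2 was at 9.56 and 10.85, 2.45-fold higher, whereas Ifit3 was at 10.76 and 11.55, 1.73-fold higher and under the limit. The Mx genes were both lower in NNK blood. Mx2 was at 11.66 in control and 8.65 in NNK blood, 8.06-fold lower, and Mx1 at 7.82 and 7.08, 1.66-fold lower. The brightness of the arrays differed, and with a shift of the 75th percentile in place of quantile normalization only Irf1 and Stat2 stayed 2-fold higher (by 2.60 and 1.58 on the log2 scale), while Mx2 and Irf7 were 2-fold lower (-3.56 and -1.83) and Ifit3 was at 0.04.

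**Figure D3:**
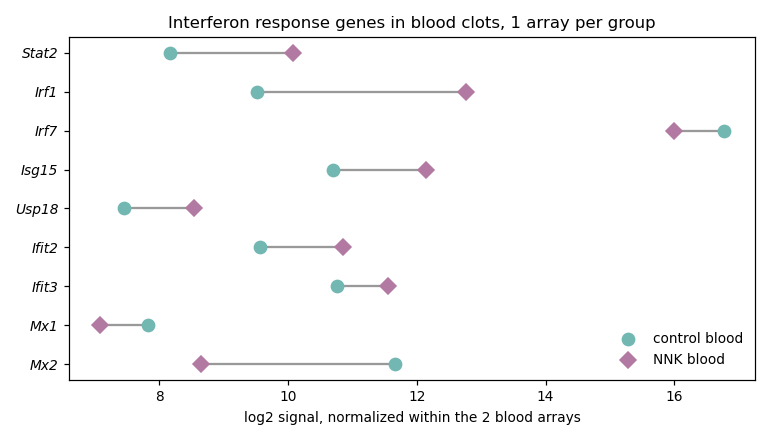
Log2 signals of the members, quantile-normalized within the 2 blood arrays, are shown for the control clot (circles) and the NNK clot (diamonds), with 1 array each and no error. Irf1 and Mx2 have the longest lines, to the right by 3.26 and to the left by 3.01, and Mx1, Mx2 and Irf7 are the 3 members whose lines run to the left.

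Blood cell markers also differed between the clots. In NNK blood, 4 of 7 T cell markers, 3 of 6 natural killer markers and 3 of 4 neutrophil markers were at least 2-fold higher. The neutrophil sum in normalized signal was 71292 against 15119 and was mostly S100a8, which was 5.02-fold higher. Camp was 2.69-fold, Csf3r 2.35-fold and Cxcr2 1.09-fold higher. Among natural killer markers Gzmb, Nkg7 and Klrd1 were 21.4-fold, 13.1-fold and 3.33-fold higher, while the brightest, Prf1, was at 0.821 times the control and kept the sum at 58495 against 64921. Among T cell markers Cd8a, Cd3e, Lck and Cd3g were 8.66-fold to 3.92-fold higher, while Cd2 and Cd3d were at 0.689 and 0.835 times the control, and the sum was 19079 against 18695. Among platelet markers 3 of 4 were at least 2-fold lower (85280 against 150370 in summed signal), and none of 5 red blood cell markers differed by 2-fold. The part of blood cell counts in the members' differences was not tested.

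Set side by side after normalization of all 8 arrays together, the members fell into different patterns over the tissues. Irf7 was at 12.34 to 12.55 on the lung arrays and at 17.31 and 16.90 in control and NNK blood. Mx1 was at 3.08 to 4.89 in lung against 10.61 and 9.42 in blood, and Mx2 at 6.48 to 7.85 against 14.17 and 11.65. These 3 genes were higher in both clots than on any lung array, also in processed signal before normalization, where Irf7 read 10054 to 12675 in lung and 110401 and 66839 in control and NNK blood. Isg15, at 9.05 to 10.86 in lung and 13.47 and 14.50 in blood, had processed signals of 909.9 to 3951 in lung and of 1405 and 4839 in blood, with the control clot within the lung range. Ifit2 was brighter in normal lung (14.29 to 14.45) than in control and NNK blood (12.55 and 13.59), and its tumor values of 12.21 to 12.41 were below both. In processed signal, however, the tumors (8725 to 10541) were above control and NNK blood (592.1 and 2140), so that this order turned with the scaling. Ifit3, at 12.44 to 12.53 in normal lung and 10.07 to 10.23 in tumor, was at 13.52 and 14.09 in blood after joint normalization but lower there than in normal lung before it. Irf1 (13.46 to 13.76 in lung, 12.51 and 14.89 in blood), Stat2 (11.27 to 11.5 in lung, 11.08 and 13.0 in blood) and Usp18 (10.25 to 11.05 in lung without the marked spot, 10.04 and 11.54 in blood) had the control clot below the lung range. Their processed signals were lower in both clots than on any lung array, and so for Irf1, Stat2, Usp18 and Ifit3 the order of NNK blood and normal lung turned with the scaling. Levels of different genes cannot be compared on this array.

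**Figure D4:**
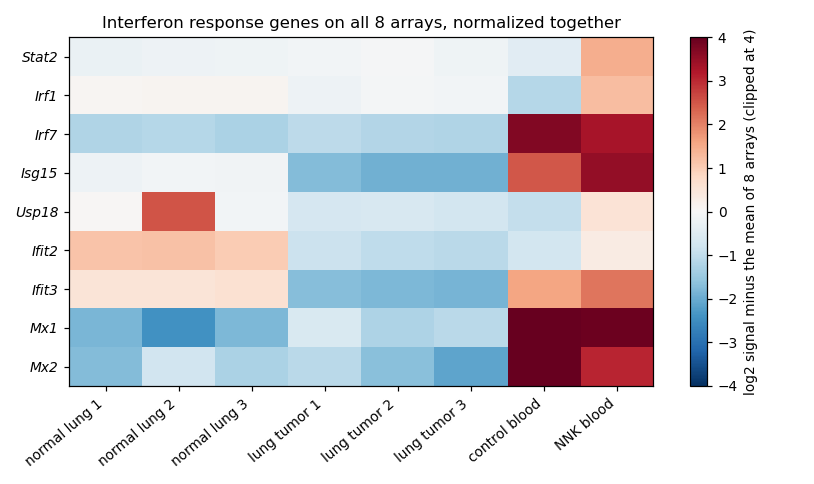
For each member (rows) the color shows the log2 signal on each of the 8 jointly normalized arrays (columns) minus its own mean over the 8 arrays, clipped at 4, with the marked spot of Usp18 in normal lung 2 included. Irf7, Mx1 and Mx2 are high in both clots, and Isg15, Ifit2 and Ifit3 are lower in the 3 tumors than in the 3 normal lungs.

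The other genes of the pathway came from 9 lists of ligands, receptors, regulators, sensors, effectors and antigen processing genes, of which 90 genes besides the members were on the array. Of these, 79 passed the filter and were tested, 27 of them with marked spots kept, and 15 fell and 5 rose in lung tumor. Their median log2 fold change was -0.12. Among all 12471 probes tested, 15.5% were lower and 13.5% higher in tumor, and 14.4% of 15803 were lower with marked spots kept. With the slide as a block 10 of 77 list genes fell and 4 rose. The same block gave 1628 falls and 1646 rises among 12319 probes. With near-identical arrays counted once, which leaves 1 normal sample, fewer passed among the list genes and among all probes alike. Nothing particular to these lists is read from the counts. In blood, 82 were well above background on at least 1 array, 31 were at least 2-fold higher and 8 lower in NNK blood, with a median log2 difference of 0.32. Over all probes compared in blood, the shares past this limit were 23.1% upward and 19.1% downward. Of 32 tested genes of these lists whose promoter held the ISRE core, 10 fell and 1 rose. Across all 8530 tested genes with a promoter entry (marked spots kept), 17.2% of the 273 genes with the core were lower in tumor, beside 14.5% of all. Those 273 include the 32 list genes and the members Ifit3 and Irf7, so this share is not separate from the count above.

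None of the 5 interferon ligands on the array passed the filter in lung, and the signals of Ifna4, Ifna5, Ifnk and Ifng were on every lung array too low to be called well above background. Of 8 receptor and JAK-STAT genes, Ifngr1, a chain of the interferon-gamma receptor, fell by 1.03 on the log2 scale (SE 0.16, limma, adjusted p = 0.0027, with marked spots on 5 of 6 arrays kept), and 7 were not called. In blood Ifngr1 was 3.44-fold higher, and Ifnar1, a chain of the interferon-alpha receptor, was at 0.478 times the control. None of 8 negative regulators was called in lung, and the phosphatases Ptpn6 and Ptpn2 were 3.18-fold and 2.44-fold higher in NNK blood. Of 6 other interferon regulatory factors only Irf4, a factor of lymphocytes, was called, with a rise of 1.13 (SE 0.15, limma, adjusted p = 0.0014, with all 3 tumor spots marked and kept). Irf5 was 2.64-fold higher in NNK blood.

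Sensors of nucleic acid moved both ways. In lung tumor Tlr3, a receptor for double-stranded RNA, and Sting1, the adaptor of DNA sensing, rose by 1.15 (SE 0.060, marked spots kept) and 1.14 (SE 0.097) on the log2 scale, and Ifih1, a cytosolic RNA sensor, fell by 1.06 (SE 0.065). The other 7 of 10 were not called. The kinase Ikbke and the adaptor Myd88 were 5.34-fold and 4.82-fold higher in NNK blood. In lung the log2 fold change of Myd88 was 0.02 (SE 0.049, limma, adjusted p = 0.682).

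The antiviral effectors were the largest list. Of 33 tested, 8 fell (Ifit1, Oas1b, Oas1k, Rsad2, Ifi44, Bst2, Rtp4 and Apol3l1) and 2 rose, beside 15.5% of all probes lower and 13.5% higher, and their median was -0.55. Ifit1, which binds viral RNA caps and has 1 protein-coding gene between it and Ifit3, was at 7.60, 7.41 and 7.46 in normal lung and 5.48, 5.23 and 5.13 in tumor, with a log2 fold change of -2.22 (SE 0.11). Ifit1, Ifit2 and Ifit3 thus all fell. Apol3l1 changed by -2.40 (SE 0.17) and Oas1k, of the family that makes the activator of RNase L, by -1.99 (SE 0.19, with marked spots on 4 of 6 arrays kept). Isg20, an exonuclease, rose by 1.62 (SE 0.12, marked spots on 4 of 6 arrays kept), and Sp100, a nuclear body protein, by 1.07 (SE 0.31, limma, adjusted p = 0.028). Sp100 was near background in normal lung, with processed signals of 14.0 to 21.2. Its log2 signals were 4.08 to 4.38 in normal lung, 4.66 in tumor 1, and 5.79 and 5.58 in the near-identical tumors 2 and 3. In blood 10 of 33 effectors were at least 2-fold higher, led by Ifi27l2b (8.50-fold) and Apol3l1 (4.32-fold). Of these 33, Trim21 and Lgals9, 2 genes, were lower (0.367 and 0.487 times the control). The shares over all probes compared in blood were 23.1% higher and 19.1% lower.

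Of the 5 interferon-gamma induced GTPases, which attack the membranes around intracellular microbes, 3 fell in lung tumor. Gbp2 fell by 1.27 (SE 0.056, marked spots of tumors 2 and 3 kept), Gbp5 by 1.13 (SE 0.048) and Irgm by 1.85 (SE 0.099). For Irgm the marked spot of tumor 1 was left out, and it read 8.84 against 7.31 and 7.14 in tumors 2 and 3 and 9.01 to 9.19 in normal lung. In blood all 5 were at least 2-fold higher in the NNK sample after quantile normalization, among them Gbp5 (4.38-fold) and Irgm (4.27-fold). Of all probes compared in blood, 23.1% were higher by this limit. The size depends on the scaling. Gbp2 had processed signals of 2838 in control and 11255 in NNK blood, on arrays with 75th percentiles of 95.4 and 205.8. The list for antigen processing for MHC class I held 10 genes, and 1 of them, Ido1, is not a gene of that process. Tap2, a subunit of the peptide transporter, fell by 1.34 (SE 0.16, marked spots of tumors 2 and 3 kept). Ido1, a tryptophan-degrading enzyme that interferon-gamma induces, was well above background on no tumor array and was at least 2.84-fold lower in tumor than in normal lung. The other 8 were not called, and in NNK blood 5 of 10 were higher, led by Psmb10 (7.52-fold), a subunit of the immunoproteasome, and Tap1 (5.09-fold).

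**Figure D5:**
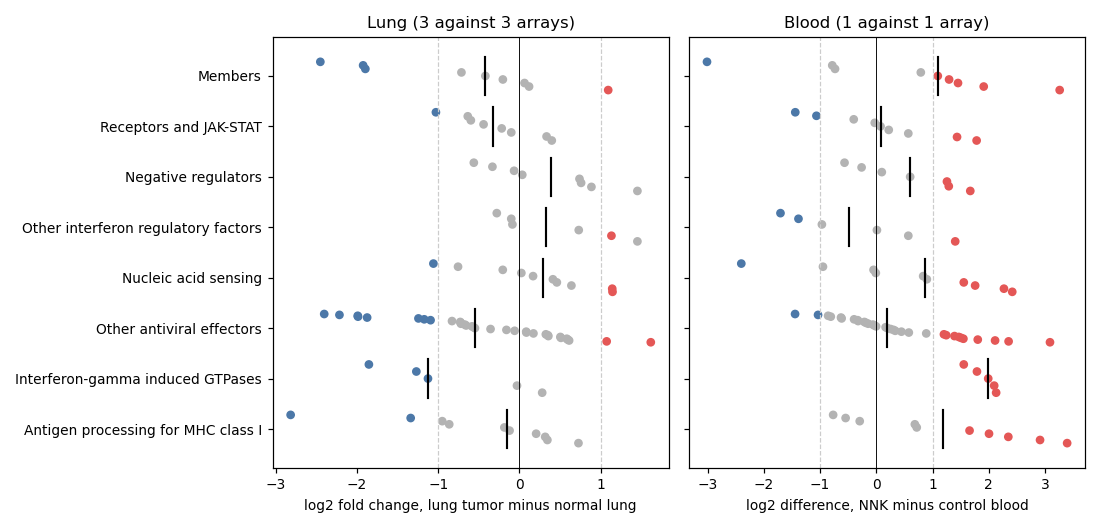
Each dot is 1 gene of the members or of a pathway list (rows), with its log2 fold change in lung tumor on the left and its log2 difference in NNK blood on the right, and black bars are medians of the list. Colored dots were called in lung or at least 2-fold different in blood (red higher, blue lower), and dashed lines mark 2-fold. The effectors and the interferon-gamma induced GTPases have medians of -0.55 and -1.13 in lung. All 5 of these GTPases lie to the right of the 2-fold line in blood, where 23.1% of all probes compared were past it.

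Genes with a pattern most like that of the members were found by the correlation of their jointly normalized log2 signal with the mean centred signal of the 9 members over the 8 arrays. Of 9744 candidate probes, Znhit6 (r = 0.997), Tnfrsf18 (r = 0.996), Lcn6, Grina and Pglyrp1 (r = 0.993 each) were closest. All were highest in the NNK clot and lowest in tumor, as the members' mean was. That mean was 2.17 in NNK blood, 1.69 in control blood, -0.38 to -0.04 in normal lung and -1.14 to -0.89 in tumor. It includes the marked spot of Usp18 in normal lung 2. Most single members departed from it. Irf7, Mx1 and Mx2 were highest in the control clot, Irf1, Stat2 and Usp18 were lowest there, and Ifit2 was highest in normal lung. For several members the order of blood and lung turned with the scaling. The points of such a correlation are 8 arrays of 2 tissues, and the closeness is given as a description.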

How the data were processed

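Gene expression was measured on 8 arrays in 4 groups, named by the sample labels. For each array the authors deposited the spot intensity given by Agilent Feature Extraction 10.5.1.1, and the background-subtracted processed signal was used. The deposited log2 values, which the authors quantile-normalized over all 8 arrays, served as an alternative.

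Control spots were removed, and the log2 processed signals of the remaining 42136 spots were put on a common distribution by quantile normalization, for the 6 lung arrays and for the 2 blood arrays apart. Spots marked as outliers (non-uniform or population) were left out, no spot was saturated, and spots of a probe were averaged. For genes with under 2 unmarked arrays in a group, among them Ifit2 and Ifit3, marked spots were kept, a choice made after the data were seen. Probes well above background on at least 3 lung arrays passed (15803 of 24684), 12471 were tested, and 3332 had too few unmarked arrays. In blood, 14452 probes were well above background on at least 1 array and had a value on both.

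Lung groups were tested with limma 3.58.1 (lmFit, eBayes, two-sided) in R 4.3.3, with Benjamini-Hochberg adjustment over all probes tested. The bound for Ido1 sets the normal mean against a floor per tumor array, namely the lowest signal well above background there or its own signal if that is larger. Of 15321 mRNA accessions, 14274 (93.2%) were named through RefSeq of GRCr8. Probe letters were not used, so hybridization between related genes was not checked.

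The members, gene lists and tests were chosen with earlier results of these data known. Named besides the members were, per list, up to 3 called genes with the largest rise and fall in lung, up to 2 past 2-fold each way in blood among genes well above background on both arrays, and the 5 probes most like the members. Some genes that this rule names are not reported here. Other genes were named with a count or after their values were seen (Ube2l6, the markers, and Myd88 in lung). The steps were tested on simulated data. Alternatives were a 75th percentile shift, normalization over all 8 arrays, normexp (offset 50), a floor of 5, other filters, marked spots kept, the authors' values, the methods' t-tests, replicate number or slide as a block, near-identical arrays counted once, other call rules and each lung array left out. The number of arrays limits the precision.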

Additional observations from a re-analysis of the deposited data

How the results depend on the processing

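Isg15, Ifit2 and Ifit3 fell under each of the alternatives run, and 3 members fell under all settings except the adjusted p alone, which added Irf1 and Usp18 (5 fell). No member rose (0) under normexp (Mx1 at 0.21), with a filter for signal above background on every array (which removed Mx1 from the test), with the methods' paired t-test (Mx1 still at 1.09) and with near-identical arrays counted once (Mx1 at 1.19, with 1 normal sample), and leaving out each lung array in turn gave 0 to 1 (0 without normal lung 2 or tumor 1). Over these settings the log2 fold change of Isg15 ran from -2.0 to -1.71 (limma or the methods' tests, highest adjusted p 0.038), of Ifit2 from -2.11 to -1.79 (0.032), of Ifit3 from -2.60 to -2.33 (0.028) and of Mx1 from 0.21 to 1.48 (0.124). Signs turned for 3 values that did not pass the test: Mx2 was at 0.20 with the slide as a block, and Irf7 at -0.16 and Stat2 at -0.03 with the 75th percentile shift. The block value of Mx2 is tumor 1 (8.02) against the 3 normal arrays of slide 1 (mean 7.82). For Irf7 and Stat2 the cause was not tested. The labels call the tumors matched but do not say which normal lung belongs to which tumor. Deviations of same-numbered arrays from their group means correlated at 0.14, -0.04 and 0.16 over 11359 probes. With the replicate block in limma 8 members were tested, 3 fell and 1 rose, and Isg15 was at -1.92.

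In blood, the count of members at least 2-fold higher was 2 with the 75th percentile shift and 3 in the authors' values, and 2 were lower with the 75th percentile shift, with normalization over all 8 arrays and in the authors' values. The 75th percentile shift moved the median of all blood probes from -0.11 to -0.26. Under normexp 1490 blood probes were higher and 841 lower, and with a filter for both arrays 2097 and 1733.

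Over all lung probes, normexp called 968 higher and 1256 lower, the methods' paired t-test 1080 and 1469, near-identical arrays counted once 778 and 976, and the adjusted p alone 4205 and 3918. Of the other pathway genes, 34 fell and 21 rose by the adjusted p alone, 5 fell and 1 rose with near-identical arrays counted once, and 3 rose under normexp and with normalization over all 8 arrays. Probes near background, such as Mx1 in normal lung, have the least certain changes.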
